A study of Sus scrofa with 9 samples.

Results

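MCL1, BCL2, BCL2L1, BCL2A1, BAX, BBC3, CDKN1A, MDM2, GADD45A and GADD45B, genes of the BCL2 family, of the p53 response and of the GADD45 family, were looked up by gene symbol in a table of 25149 genes measured in 9 porcine hearts. Of these 10 names, 4 were listed by symbol: BAX, MDM2, GADD45B and CDKN1A. BBC3 was found only through its RefSeq-paired identifier (ENSSSCG00000003112), on a row without a symbol, and its values are given beside those of the 4. MCL1, BCL2, BCL2L1, BCL2A1 and GADD45A were found neither by symbol nor by such an identifier and were not analysed here. The anti-apoptotic side of the BCL2 family was therefore not measured in what follows, and no ratio of BAX to BCL2 was formed.

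The BCL2 family decides whether the outer membrane of the mitochondrion stays closed. Its guardians (BCL2, BCL2L1, MCL1, BCL2A1) hold back the pore formers BAX and BAK1, while BH3-only proteins such as BBC3 (PUMA) and PMAIP1 (NOXA) oppose the guardians, and an open pore releases cytochrome c, which activates caspases through APAF1. The transcription factor p53 responds to DNA damage and other stresses, including reoxygenation after ischemia, by inducing BAX and BBC3, the cell cycle inhibitor CDKN1A (p21), the stress sensor GADD45A and its own negative regulator MDM2, the ubiquitin ligase that targets p53 for degradation. GADD45B, the relative of GADD45A, is induced mainly by NF-kB, TGF-beta and other stress signals rather than by p53.

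The hearts came from female American Yorkshire pigs 4 to 6 months old in a model of donation after circulatory death (DCD), in which all donors, the comparison group included, underwent 15 min of warm ischemia. In NRP + SCS 2 h (pigs 24, 25 and 29) and NRP + HOPE 24 h (pigs 27, 28 and 30), warm blood was circulated through the donor for 60 min before the heart was removed (normothermic regional perfusion, NRP), and the heart was then kept for 2 h in static cold storage (SCS) at 4 °C or for 24 h in hypothermic oxygenated perfusion (HOPE) at 8 °C. In No NRP + HOPE 2 h (pigs 31, 33 and 34) the heart was removed directly and kept for 2 h in HOPE. The HOPE perfusate contained donor red blood cells, whereas SCS hearts were submerged in preservation solution. Each heart was reanimated for 2 h on a blood-primed machine circuit, and a biopsy of the apex was then taken for RNA. The study's histology, flow cytometry and metabolomics used biopsies of the right ventricular septum or the left ventricle. RNA sequencing gave a level per gene in TPM (transcript abundance scaled to a common total in each heart), which allows for gene length. The study asked how long HOPE compares with short SCS after NRP, and what NRP adds before short preservation. Storage method, duration and temperature differed together in the former comparison, and NRP differed together with storage method and temperature in the latter, so their parts cannot be told apart.

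The labels give the cells as cardiomyocytes, and the 8 cardiomyocyte markers listed (among them TNNT2, TNNI3 and MYH7) summed to 27037 to 49592 TPM per heart. The biopsies also held RNA of endothelial (228 to 542 TPM), fibroblast (390 to 655 TPM), myeloid (49.3 to 133.9 TPM), lymphocyte (5.78 to 24.8 TPM) and erythroid (72.3 to 430.4 TPM) markers, so a lower level of a gene can mean fewer cells of a type or less RNA per cell, which cannot be told apart in bulk tissue. The 13 mitochondrially encoded protein genes took 38.2% of all TPM in the heart of pig 30 and 44.8% to 55.3% in the others, and pig 30 also had the highest size factor (1.34, against 0.74 to 1.18), a measure of how high the median gene stands. Results were therefore also computed after median-of-ratios scaling, after quantile normalization and without mitochondrially encoded genes. The number of reads behind each value is unknown.

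GADD45B (ENSSSCG00000022689), a stress-induced sensor protein that acts on p38 and JNK signalling and on DNA repair, was the member with the smallest p in the NRP comparison, and its level was highest in the hearts without NRP. Its level in No NRP + HOPE 2 h was 496 TPM in pig 31, 585 TPM in pig 33 and 699 TPM in pig 34. In NRP + SCS 2 h it was 416 TPM in pig 24, 350 TPM in pig 25 and 306 TPM in pig 29. In NRP + HOPE 24 h it was 395 TPM in pig 27, 472 TPM in pig 28 and 399 TPM in pig 30. Each heart procured without NRP was thus above each of the other 6, and the groups with NRP overlapped. GADD45B was also the most abundant member, with a mean level above that of 98.6% of the genes tested, and a steady one: its SD within groups was 0.21 on the log2 scale, and 3.84% of genes had an SD as low or lower.

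BAX (ENSSSCG00000003144), the pore former, reached its highest level in No NRP + HOPE 2 h as well, but with a wide spread. It was at 21.3, 29.7 and 49.2 TPM in pigs 31, 33 and 34. It was at 19.5, 25.1 and 19.2 TPM in pigs 24, 25 and 29 of NRP + SCS 2 h, and at 13.9, 13.2 and 33.3 TPM in pigs 27, 28 and 30 of NRP + HOPE 24 h. All 3 groups overlapped, and the high value of NRP + HOPE 24 h came from pig 30, the heart with the lowest mitochondrial share. The within-group SD of BAX was 0.55 on the log2 scale, which 75.0% of genes did not exceed. Over the 9 hearts the level of BAX had a Pearson r of -0.77 with the mitochondrially encoded share of TPM, a description over values that share a common total; the part of that share in the level of BAX was not tested.

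MDM2 (ENSSSCG00000000488), the brake on p53, was a gene of middling level. In NRP + SCS 2 h it was at 6.88, 5.75 and 10.1 TPM (pigs 24, 25 and 29). In NRP + HOPE 24 h it was at 3.32, 5.49 and 3.92 TPM (pigs 27, 28 and 30), each below the lowest SCS heart, with pig 28 close to pig 25. In No NRP + HOPE 2 h it was at 3.94, 4.58 and 7.15 TPM (pigs 31, 33 and 34), overlapping both other groups.

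BBC3, the BH3-only protein PUMA, showed no separation of the groups. Its level was 7.56, 3.80 and 2.51 TPM in NRP + SCS 2 h, 3.45, 2.93 and 6.42 TPM in NRP + HOPE 24 h and 3.17, 4.35 and 4.03 TPM in No NRP + HOPE 2 h, in the same order of pigs as above. The highest and the lowest of these 9 values both belonged to NRP + SCS 2 h. CDKN1A (ENSSSCG00000001565), the best known p53 target, was listed at exactly 0 TPM in all 9 hearts. The same held for 16.5% of the genes with a symbol and for 1 of 14 listed genes that nearly every cell uses, the respiratory chain gene SDHA, so such a 0 may be a failed estimate and was read neither as absence nor as a level.

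**Figure D1:**
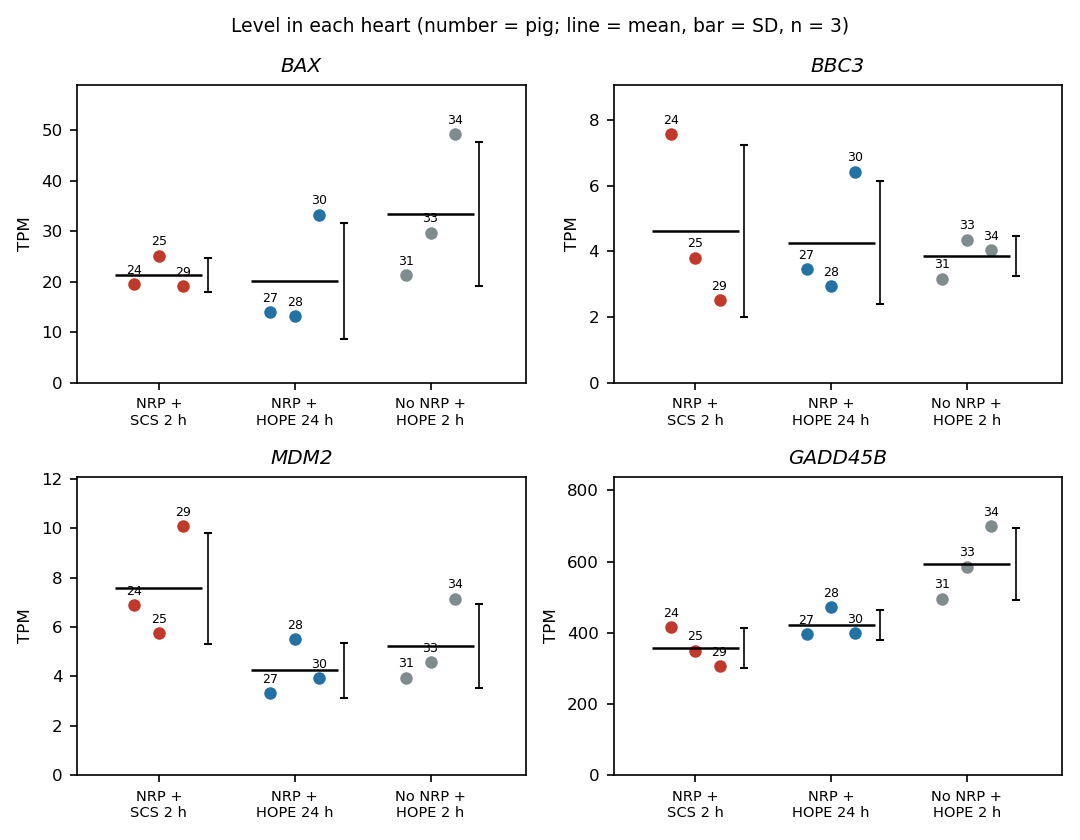
Level in TPM of BAX, BBC3, MDM2 and GADD45B in each heart, with hearts grouped along the x axis and labelled by pig number; lines are means and bars the SD of 3 hearts. GADD45B in the 3 hearts without NRP (496 to 699 TPM) lies above the other 6 (306 to 472 TPM), while BAX and BBC3 overlap between all groups.

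The plot of member levels by heart also shows how the members rank. From the highest mean level over the 9 hearts to the lowest, the order was GADD45B (457 TPM), BAX (24.9 TPM), MDM2 (5.68 TPM) and BBC3 (4.25 TPM). MDM2 and BBC3 were neighbours whose ranges over hearts overlapped (3.32 to 10.1 TPM against 2.51 to 7.56 TPM). The lowest BAX heart (13.2 TPM) was above the highest MDM2 heart, and the lowest GADD45B heart was above the highest BAX heart.

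The preservation comparison set the hearts of NRP + HOPE 24 h beside those of NRP + SCS 2 h. Of the 3 members tested (BAX, MDM2 and GADD45B), 0 passed an adjusted p of 0.05 in limma, and 0 passed an unadjusted p of 0.05. Over all 11782 genes tested, 0.0255% passed the adjusted threshold, and at the unadjusted one 1.82% were higher and 3.14% lower in NRP + HOPE 24 h. MDM2 came nearest, with means of 4.25 ± 1.12 TPM against 7.57 ± 2.24 TPM (SD, n = 3 each) and a log2 fold change of -0.70 (SE 0.33, 95% interval -1.41 to 0.01, adjusted p = 0.993). It was the 1 member whose groups did not overlap, being lower in NRP + HOPE 24 h, which was so for 7.32% of all genes, and higher for 2.50%. This separation was absent after median-of-ratios scaling and without the mitochondrially encoded genes, where the log2 fold changes of MDM2 were -0.57 and -0.76. Endothelial markers stood in the same direction, with 6 of 6 tested at log2 fold changes below 0 (median -0.47, TEK lower without overlap, 0 past either threshold). Of all 11782 genes, 7558 were below 0. Over the 9 hearts the highest coefficients of MDM2 among the 6 marker sums were with the endothelial sum (Pearson r 0.50) and the myeloid sum (0.43), given as a description. Of the other markers, S100A9 of myeloid cells was lower (log2 fold change -1.35, adjusted p = 0.792) and HBB of erythroid cells higher (1.27, adjusted p = 0.943) past the unadjusted threshold only, both with overlap. Of the 7 myeloid markers tested 3 were above 0 and 4 below (median -0.12), and of the erythroid ones 3 of 3 were above 0. The part of these cell types in the level of MDM2 was not tested. GADD45B had a log2 fold change of 0.25 (95% interval -0.25 to 0.75), and BAX one of -0.19 (95% interval -1.03 to 0.64). BBC3 stood at -0.05 (95% interval -0.87 to 0.77), and its sign changed with the scaling. The median of the 3 members was -0.19, which is the value of BAX itself (BBC3 is not counted), beside -0.12 for all genes tested.

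The NRP comparison set the hearts of No NRP + HOPE 2 h beside those of NRP + SCS 2 h. GADD45B had means of 593 ± 102 TPM against 357 ± 55.2 TPM (SD, n = 3 each), a 1.66-fold difference on the TPM + 1 scale. Its log2 fold change was 0.73 (SE 0.23, 95% interval 0.23 to 1.23), and it did not pass after adjustment over all genes (adjusted p = 0.483). It was 1 of 3 members past the unadjusted threshold and 1 of 3 without overlap, higher in both cases. Over all genes, 2.57% passed the former upward and 4.65% downward, and 4.44% were without overlap upward and 10.3% downward. At the adjusted threshold the count was 0 of 3, beside 0.0509% of all genes. GADD45B in hearts without NRP remained above all NRP hearts after median-of-ratios scaling (543 to 635 against 285 to 537) and without the mitochondrially encoded genes (1100 to 1266 TPM against 646 to 1041 TPM).

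BAX in the same comparison had means of 33.4 ± 14.3 TPM against 21.3 ± 3.35 TPM (SD, n = 3 each) and a log2 fold change of 0.56 (SE 0.39, 95% interval -0.28 to 1.39, adjusted p = 0.829). The overlap of its groups depended on the scaling. After median-of-ratios scaling the BAX values were 27.3, 27.5 and 41.5 in the hearts without NRP, above 17.8 to 23.6 in NRP + SCS 2 h and 14.4 to 24.8 in NRP + HOPE 24 h, and passed the unadjusted but not the adjusted threshold (adjusted p = 0.33). MDM2 had a log2 fold change of -0.46 (95% interval -1.17 to 0.25, from -0.67 to -0.26 with 1 heart left out) and BBC3 one of -0.12 (95% interval -0.94 to 0.70). The median of the 3 tested members was 0.56, which is the value of BAX itself (BBC3 is not counted), beside -0.07 for all genes.

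Erythroid markers stood apart in the NRP comparison in the same hearts as GADD45B. Hearts in HOPE were perfused with donor red blood cells and SCS hearts were not. NRP differed together with this, so their parts in these markers cannot be told apart. Of the 5 marker names 4 were listed, and their summed level was 226 to 379 TPM in No NRP + HOPE 2 h and 72.3 to 136 TPM in NRP + SCS 2 h, and 3 of 3 erythroid markers tested were higher without overlap (unadjusted p under 0.05 each, none past adjustment). SLC4A1, the erythroid marker below the filter, was listed at 0 in 4 hearts and under 0.1 TPM in the others. In NRP + HOPE 24 h the erythroid sum was 74.1, 348 and 430.4 TPM in pigs 27, 28 and 30, and GADD45B 395, 472 and 399 TPM. Over the 9 hearts GADD45B had a Pearson r of 0.55 with the erythroid sum, the highest of its coefficients with the 6 marker sums, given as a description over values that share a common total. Among the markers of the other cell types, S100A9 of myeloid cells was lower without overlap, at 0 to 0.34 TPM without NRP and 1.79 to 8.02 TPM after SCS (log2 fold change -2.17, adjusted p = 0.14). S100A8, a myeloid marker below the filter, was at 0 TPM in the hearts without NRP and at 0.22 to 5.17 TPM after SCS. Of the 7 myeloid markers tested, 4 had log2 fold changes above 0 and 3 below (median 0.01). DCN of fibroblasts (364 to 457 TPM against 279.6 to 329.8 TPM) and NKG7 of lymphocytes (5.57 to 6.04 TPM against 2.93 to 5.10 TPM) were higher without overlap, with log2 fold changes of 0.37 and 0.51 (adjusted p = 0.804 and 0.867). Of 4 fibroblast markers tested 3 were above 0 and 1 below (PDGFRA, -0.40), and of 5 lymphocyte markers 4 were above 0 and 1 below (CD8A, -0.28). The part of blood cell RNA or of these cell types in the level of GADD45B was not tested.

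The third comparison set the groups kept in HOPE beside each other, NRP + HOPE 24 h over those without NRP. It shares its hearts with the other two, and its groups differ in both NRP and the duration of HOPE. All 3 members tested had lower means in NRP + HOPE 24 h, 0 passed the adjusted threshold (0.0509% of all genes did) and 0 the unadjusted one (2.78% of genes upward, 3.23% downward). GADD45B, the 1 member without overlap, had a log2 fold change of -0.48 (SE 0.23, 95% interval -0.98 to 0.02, adjusted p = 0.846); groups were without overlap for 4.51% of genes in that direction and for 2.97% in the other. BAX had a log2 fold change of -0.75 (SE 0.39, 95% interval -1.58 to 0.09, adjusted p = 0.857), which ranged from -1.16 without pig 30 to -0.435 without pig 34, and after median-of-ratios scaling its groups did not overlap (adjusted p = 0.331). MDM2 stood at -0.23 (95% interval -0.94 to 0.48) and BBC3 at 0.07 (95% interval -0.75 to 0.89). The members' median was -0.48, which is the value of GADD45B itself (BBC3 is not counted), beside -0.03 for all genes. Of the cell type markers, ACTC1 of cardiomyocytes was higher past the unadjusted threshold only (log2 fold change 0.76, adjusted p = 0.829, with overlap), and S100A9 of myeloid cells was higher without overlap (0.82, adjusted p = 0.891). Of the 8 cardiomyocyte markers tested 4 were above 0 and 4 below, and of the 7 myeloid markers 3 were above and 4 below (median -0.09). The 3 tested erythroid markers had log2 fold changes from -0.63 to -0.23, with overlap. The part of these cell types in the members' levels was not tested.

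**Figure D2:**
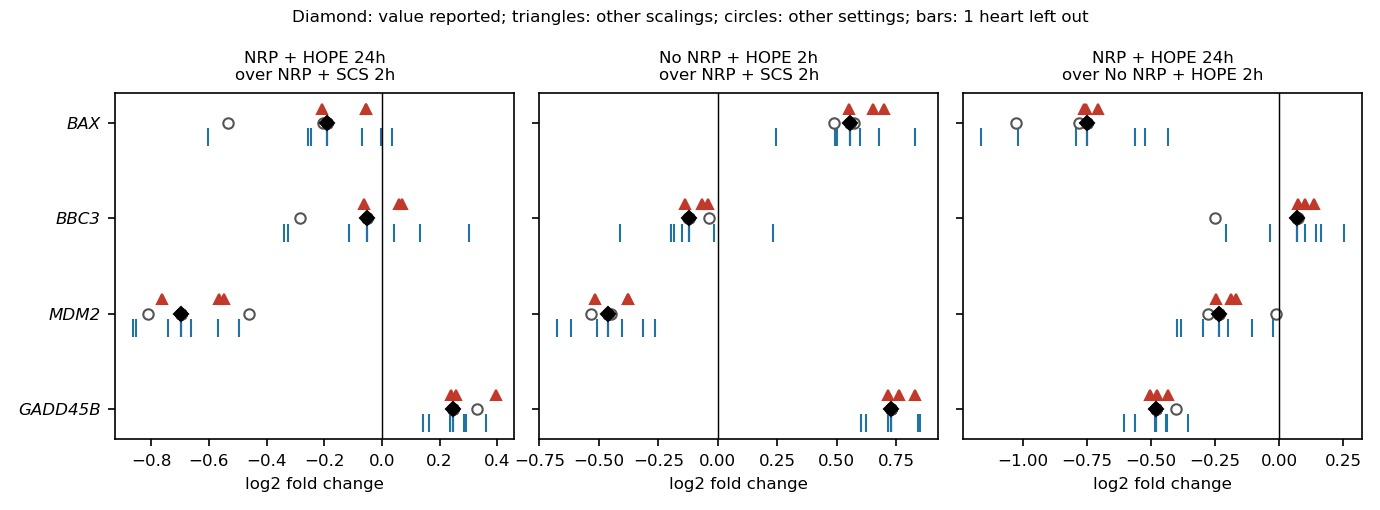
Log2 fold changes of BAX, BBC3, MDM2 and GADD45B in the 3 comparisons as reported (diamonds), under other scalings (triangles) and settings (circles), and with each heart left out (bars). All points of GADD45B lie to the right of 0 in the NRP comparison (0.60 to 0.85), while those of BBC3 fall on both sides of 0 in every comparison.

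The plot of fold changes under each setting separates the members by how much the setting mattered. GADD45B ranged from 0.60 to 0.85 in the NRP comparison with 1 heart left out, and its adjusted p over all alternatives ranged from 0.0666 to 0.999. BAX ranged from 0.24 to 0.83 there, and from -0.60 to 0.03 in the preservation comparison, where leaving out pig 30 or pig 28 gave these ends. MDM2 stayed below 0 in all 3 comparisons under every alternative run, but between the HOPE groups it came as near as -0.0129.

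Genes around the members were read from 3 lists: other BCL2 family genes (11 of 19 written names listed, 10 tested), other p53 pathway genes (19 of 28 listed, 18 tested) and caspases with their regulators (14 of 19 listed, 12 tested). Of these 40 tested genes, 0 passed limma's adjusted threshold in any comparison. At the unadjusted threshold, 3 passed in the preservation comparison, 2 in the NRP comparison and 3 between the HOPE groups, or 7.50%, 5% and 7.50% of the 40, beside 4.97%, 7.22% and 6.01% of all genes tested. These shares lay near those of all genes, and the genes past the unadjusted threshold were SESN2, PLK2, PHLDA3, EI24 and FAS, each on the p53 list.

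MDM4, the relative of MDM2 that binds p53, did not separate the groups, at 2.77 to 10.5 TPM over the 9 hearts. Its log2 fold changes were -0.31 (SE 0.41, adjusted p = 0.993) in the preservation comparison and -0.26 (SE 0.41, adjusted p = 0.934) in the NRP comparison.

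SESN2, a sestrin that curbs mTORC1 and oxidative stress and is induced by p53 and by other stress pathways, was lowest in the hearts without NRP. It was at 2.71, 8.63 and 4.69 TPM in pigs 31, 33 and 34. The 6 hearts with NRP ranged from 13.3 to 29.9 TPM and did not separate by preservation. The log2 fold change was -1.76 (SE 0.39, adjusted p = 0.162) in the NRP comparison, and 2.04 (SE 0.39, adjusted p = 0.14) for NRP + HOPE 24 h over No NRP + HOPE 2 h, where it had the tenth smallest p of all genes. The latter ranged from 1.71 to 2.40 with 1 heart left out, and its adjusted p over 18 alternatives from 0.0321 to 0.571, with 1 of them past the threshold (without pig 33). SESN2 and GADD45B, both stress-induced genes, thus stood in opposite order in the hearts without NRP.

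PLK2, a polo-like kinase that p53 induces, was highest after long HOPE, at 67.1, 56.2 and 107.6 TPM in pigs 27, 28 and 30 against 23.5 to 53.6 TPM in the other 6 hearts. Its log2 fold change was 1.06 (SE 0.35, adjusted p = 0.767) over NRP + SCS 2 h and 1.05 (SE 0.35, adjusted p = 0.563) over No NRP + HOPE 2 h. PHLDA3, a p53-induced inhibitor of AKT, pointed the other way, at 17.2, 10.5 and 51.1 TPM in NRP + HOPE 24 h against 33.8 to 76.0 TPM elsewhere, and pig 30 overlapped the other groups. Its log2 fold changes were -1.44 (SE 0.47, adjusted p = 0.736) and -1.14 (SE 0.47, adjusted p = 0.795). When variable hearts counted for less (array weights), the former was -1.93 with an adjusted p of 0.0417, the 1 of 18 alternatives past the threshold. With 1 heart left out it ranged from -2.06 to -0.97, the latter end without pig 28 and no longer past the unadjusted threshold, and the value between the HOPE groups ranged from -1.75 without pig 30 to -0.66 without pig 28.

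EI24, a p53-induced protein of the endoplasmic reticulum, was at 6.65 to 10.5 TPM without NRP and 14.4 to 14.97 TPM after SCS, with a log2 fold change of -0.83 (SE 0.30, adjusted p = 0.565). FAS, a death receptor and p53 target, was lowest after SCS, at 6.16, 4.63 and 6.46 TPM in pigs 24, 25 and 29. It was at 8.58, 10.7 and 15.7 TPM in NRP + HOPE 24 h and at 6.49, 9.10 and 10.8 TPM in No NRP + HOPE 2 h, so that pig 31 lay just above the highest SCS heart. Its log2 fold changes were 0.88 (SE 0.32, adjusted p = 0.871) in the preservation comparison and 0.52 (SE 0.32, adjusted p = 0.804) in the NRP comparison, both set against the same 3 SCS hearts. The p53 list thus held genes in both directions in each comparison, with a median log2 fold change of -0.12 in the preservation comparison, 0.01 in the NRP comparison and -0.05 between the HOPE groups.

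**Figure D3:**
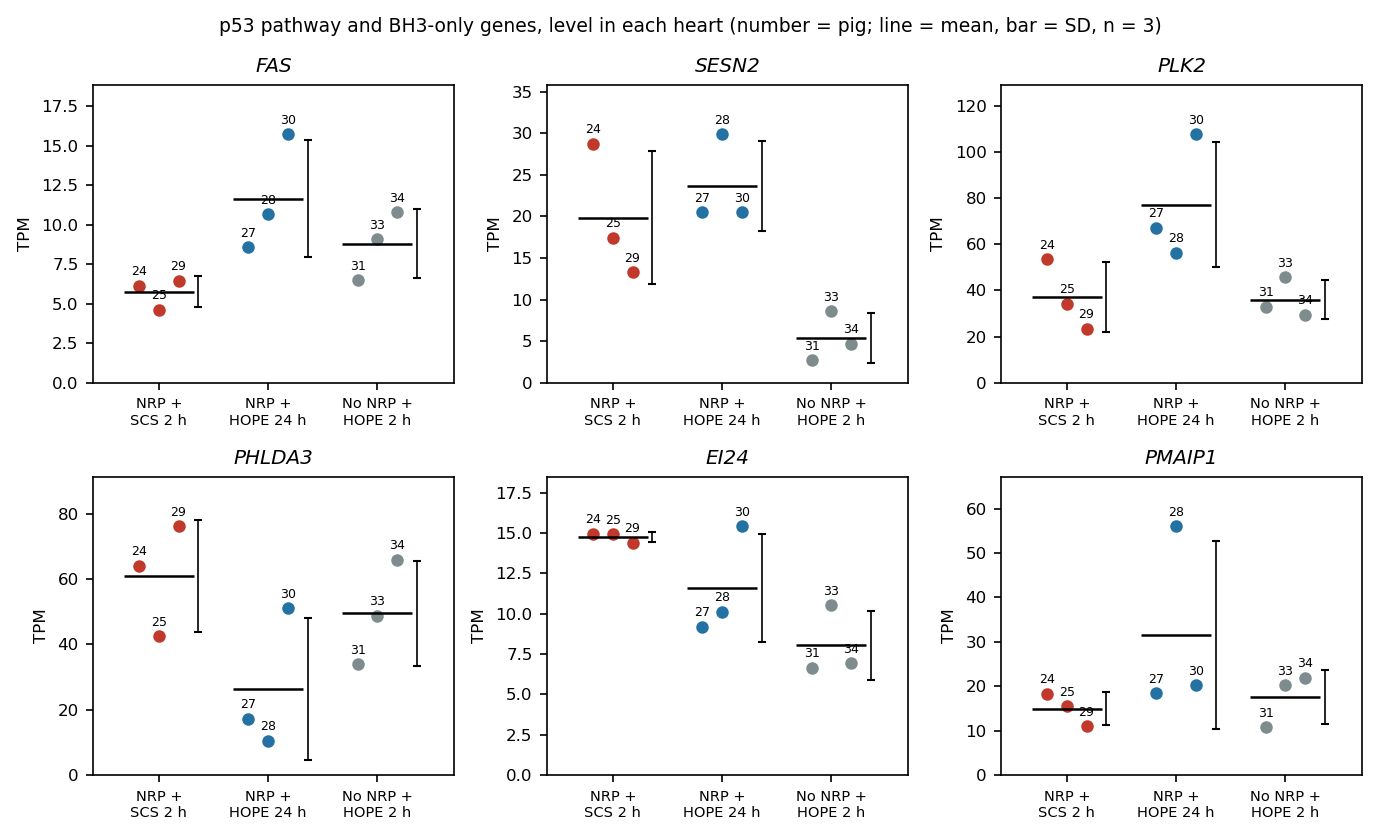
Level in TPM of FAS, SESN2, PLK2, PHLDA3, EI24 and PMAIP1 in each heart, labelled by pig number; lines are means and bars the SD of 3 hearts. FAS is lowest in the 3 SCS hearts (4.63 to 6.46 TPM), SESN2 lowest in the 3 hearts without NRP (2.71 to 8.63 TPM) and PLK2 highest after 24 h of HOPE (56.2 to 107.6 TPM).

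The plot of pathway genes by heart includes PMAIP1, the BH3-only protein NOXA and a p53 target on the BCL2 family list. It was at 18.4, 56.0 and 20.2 TPM in NRP + HOPE 24 h and at 18.4, 15.6 and 11.0 TPM in NRP + SCS 2 h, so that pigs 27 and 24 nearly met and pig 28 carried much of the difference (log2 fold change 0.87, SE 0.42, adjusted p = 0.993). Leaving out 1 heart gave 0.37 to 1.15. BAK1, the pore former that acts beside BAX, had nearly equal group means (8.49, 8.17 and 8.73 TPM in NRP + SCS 2 h, NRP + HOPE 24 h and No NRP + HOPE 2 h). BID, which relays death receptor signals to BAX and BAK1, and BAD, a BH3-only protein controlled by phosphorylation, had log2 fold changes of -0.23 and -0.33 in the preservation comparison, which ranged from -0.35 to -0.0216 and from -0.57 to -0.12 with 1 heart left out. BNIP2, a BCL2-interacting protein, was at 2.97, 4.76 and 8.93 TPM without NRP and 2.91, 3.92 and 3.45 TPM after SCS, groups that overlapped (log2 fold change 0.47, SE 0.42, adjusted p = 0.88, from 0.12 to 0.78 with 1 heart left out). BNIP1 was at 7.08 to 7.66 TPM without NRP, below the 8.09 to 17.5 TPM of the 6 hearts with NRP.

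BCL2L14 shows a value set by 1 heart. It was at 25.9 TPM in pig 34 and at 0.88 to 2.74 TPM in the other 8, and its log2 fold change in the NRP comparison dropped from 1.28 to 0.19 without that heart. BCL2L11 (BIM), like CDKN1A, was listed at 0 TPM in all 9 hearts. On the BCL2 family list 0 of 10 tested genes passed the unadjusted threshold in each comparison, with median log2 fold changes of -0.08, -0.04 and -0.03 in the order of comparisons above.

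Downstream of the mitochondrion, 0 of 12 tested caspases and regulators passed the unadjusted threshold in any comparison. CYCS, cytochrome c, was at 488 to 671 TPM and was among the least variable genes within groups (SD 0.17 on the log2 scale, with 1.26% of genes as low or lower). Its log2 fold changes were 0.09 (95% interval -0.38 to 0.56), 0.03 (-0.44 to 0.50) and 0.07 (-0.40 to 0.54). APAF1 and CASP9, which with cytochrome c form the apoptosome, were near the filter on low values at 0.73 to 3.86 TPM and 0.26 to 1.63 TPM. DFFA, the inhibitor of the caspase-activated DNase, was at 5.15 to 7.15 TPM in NRP + SCS 2 h, at 2.93 to 4.79 TPM without NRP and at 3.01, 2.10 and 6.58 TPM in pigs 27, 28 and 30 of NRP + HOPE 24 h. Its log2 fold change was -0.67 (adjusted p = 0.993) in the preservation comparison, where pig 30 overlapped the SCS hearts, and -0.58 (adjusted p = 0.81) in the NRP comparison, both against the same SCS hearts. With 1 heart left out the former ranged from -1.04 to -0.39 and the latter from -0.70 to -0.42. ENDOG, a mitochondrial endonuclease, was at 3.25 to 4.65 TPM in NRP + HOPE 24 h, below 5.24 to 7.41 TPM in the other 6 hearts, with log2 fold changes of -0.48 and -0.45 (adjusted p = 0.993 and 0.931). CASP6, an executioner caspase, and CASP2, an initiator, had log2 fold changes between the HOPE groups of -0.39 and -0.22. With 1 heart left out that of CASP6 ranged from -0.79 to 0.0655, so its sign changed, and that of CASP2 from -0.54 to -0.0375. BIRC3, an inhibitor of apoptosis that NF-kB induces, was at 40.2 to 50.2 TPM without NRP and 34.4 to 38.95 TPM after SCS, with a log2 fold change of 0.30 (adjusted p = 0.884).

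**Figure D4:**
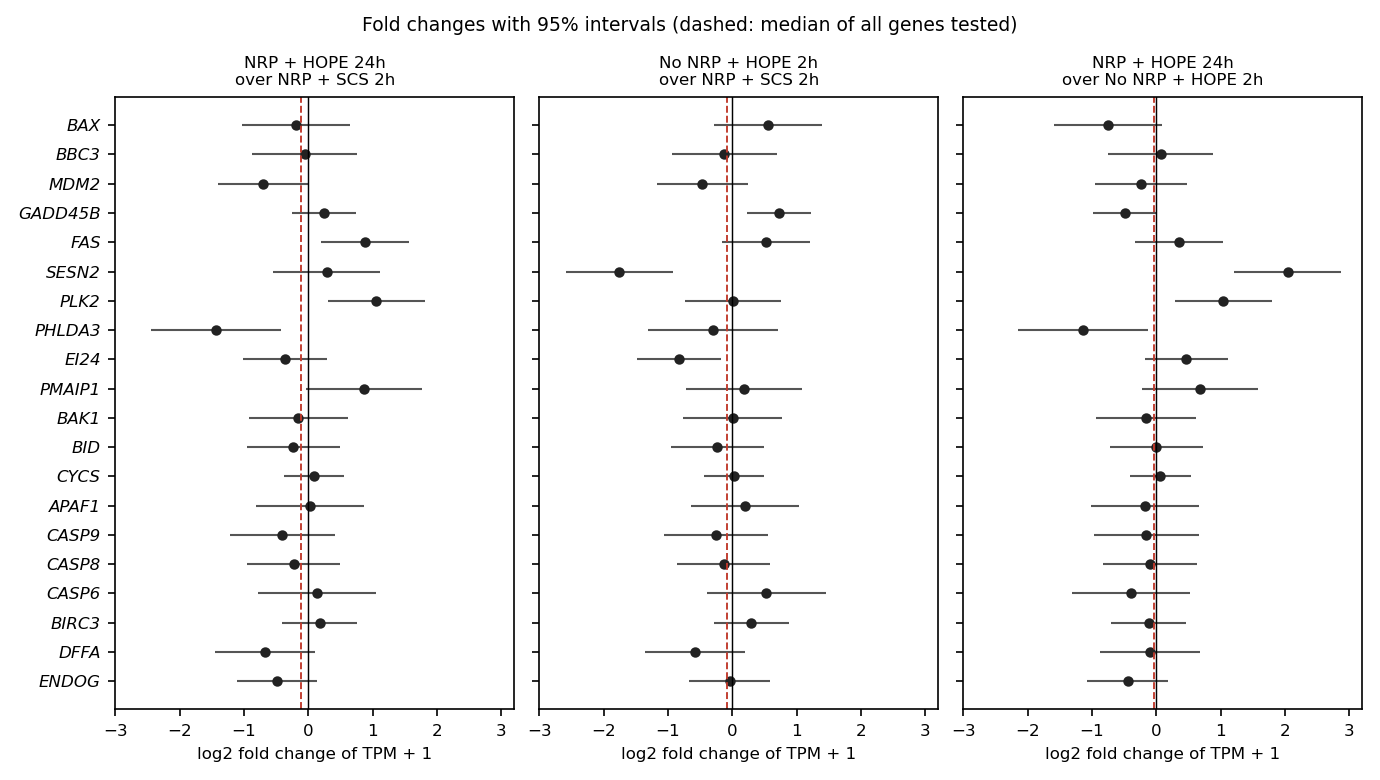
Log2 fold changes of TPM + 1 (points) with 95% intervals (lines) for 20 genes of the BCL2 family, p53 pathway and caspases in the 3 comparisons; dashed lines mark the median of all genes tested (-0.12, -0.07 and -0.03). Most intervals cross 0. Those of SESN2 lie farthest from it in the pair of comparisons with the hearts without NRP, whereas in the preservation comparison that of SESN2 crosses 0 and those of PHLDA3, PLK2 and FAS do not.

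The plot of fold changes with intervals shows how far the data bound the differences. The interval for CYCS spans less than 1 log2 unit in each comparison, whereas that for BAX spans 1.67 log2 units. Groups were without overlap for 4 of the 40 other genes in the preservation comparison (3 higher, 1 lower), 7 in the NRP comparison (2 higher, 5 lower) and 4 between the HOPE groups (3 higher, 1 lower). These were 10%, 17.5% and 10% of the 40, beside 9.82%, 14.7% and 7.48% of all genes tested, and lay near those shares.

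**Figure D5:**
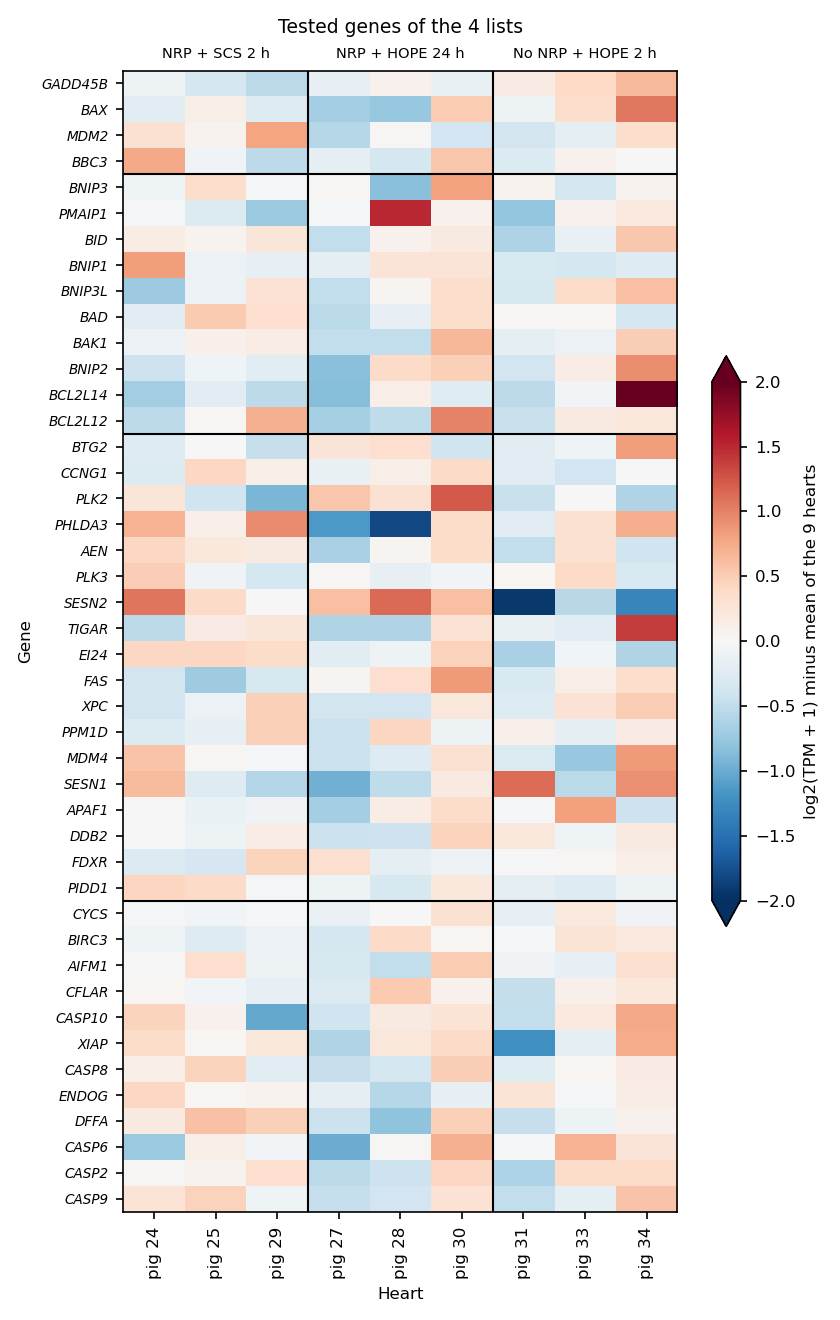
Heat map of log2(TPM + 1) minus the mean of the 9 hearts for the 44 tested genes of the 4 lists (rows, separated by lines) in each heart (columns, by group). Pig 30 (size factor 1.34) is above the mean in 36 rows and pig 27 (size factor 0.74) below it in 37, and SESN2 is below it in the 3 hearts without NRP.

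In the heat map of pathway genes, much of the variation ran along hearts rather than groups. Of the 44 rows, pig 30 was above the mean of the 9 hearts in 36, pig 27 below it in 37 and pig 31 below it in 36. Pig 34 was above it in 32. The size factors of these hearts, taken over genes of the whole series, stood in the same order. They were 1.34 in pig 30, 1.18 in pig 34, 0.78 in pig 31 and 0.74 in pig 27. Pigs 30 and 27, with the highest and the lowest size factor, both belong to NRP + HOPE 24 h. The share of all genes above the mean in each heart was not computed, so the counts are not read as particular to these lists.

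No pair of members had a correlation over hearts that passed a test. Over the 9 hearts and 3 pairs of tested members, 0 pairs passed after Benjamini-Hochberg adjustment. BAX and GADD45B had the highest coefficient (Pearson r 0.53, permutation p = 0.144, adjusted 0.432; Spearman rho 0.43, permutation p = 0.25, adjusted 0.75), which was 0.33 without the 2 hearts farthest from the median of BAX and 0.13 without pig 34 alone. With group means removed it was 0.27, and it turned to -0.50 after median-of-ratios scaling, -0.49 after quantile normalization and -0.47 without mitochondrially encoded genes, so that the sign within groups depended on the scaling. BAX and MDM2 had r 0.13 (permutation p = 0.739; rho 0.07, p = 0.88), which turned to -0.29, -0.29 and -0.05 under these same settings. MDM2 and GADD45B had r -0.18 (permutation p = 0.634; rho -0.05, p = 0.912), which was 0.31 without pig 29, -0.54 without pig 34 and 0.37 with group means removed.

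The genes whose pattern over the 9 hearts was most like that of a member, by Pearson r of log2(TPM + 1), were LAMTOR2 (0.986) and CDC42EP4 (0.971) for BAX. For MDM2 they were FAM135A (0.966) and GJA1 (0.963), the latter encoding connexin 43, the main gap junction protein of the ventricle. For GADD45B they were TEC (0.925) and LPIN3 (0.914), and for BBC3 DDX51 (0.934) and PFKP (0.933). Each is the highest of many coefficients over 9 hearts that share depth and composition, and is given as a description.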

How the data were processed

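RNA sequencing of 9 porcine hearts was analysed, 3 per group, each with 1 biopsy of the apex sequenced that was taken after machine reperfusion. Groups were taken from the sample labels. According to the study's methods and the submitters' processing notes, the authors selected polyadenylated RNA, trimmed the reads (Trimmomatic 0.36), mapped them (STAR 2.5.2b) and counted them per gene (Subread 1.5.2). The deposited values are TPM with 4 decimals, made by the authors, and sum to 1000000 in each heart. The genome build is not given in the sources used here, so no positions or sequences are printed. TPM keep no read depth, so counting intervals and floors cannot be given, and the precision is that of the spread between 3 hearts. A further 9 columns could not be tied to a sample and were not used, and 12006 genes carry no symbol. Identifiers of 11804 genes were paired with symbols through RefSeq (Sscrofa11.1).

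limma 3.58.1 in R 4.3.3 (eBayes with trend) was fitted to log2(TPM + 1) over all 9 hearts with 1 mean per group, for the 11782 genes that reached 1 TPM in 3 hearts or more. Tests were two-sided, with Benjamini-Hochberg adjustment over all genes within a comparison and a threshold of 0.05. Fold changes are on the TPM + 1 scale and understate those of low genes. The fit was tested on simulated data in which each gene varied on its own. Shifts shared by the genes of a heart were not simulated, so that test does not cover them. Nothing says that hearts of different groups were paired, and pig numbers are not shared between groups. Correlations over hearts used permutation tests over all orders of the hearts (scipy 1.17.1, Python 3.11.15, numpy 2.4.6, pandas 2.3.3), and figures matplotlib 3.10.9. Array weights used statmod 1.5.0.

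The members, the 3 lists of related genes, the marker lists and the tests were chosen with earlier results of these data known, and are not independent of them. The text names the members, the 3 tested genes with the smallest p of each list in each comparison, and the 2 genes most like each member, with BAK1, CYCS, APAF1, MDM4 and BCL2L11 added after their values were seen. Of the p53 list as first written, 2 genes are not reported here and were left out of its counts. The ratio of BAX to BCL2 was planned but could not be formed without a BCL2 row.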

Additional observations from a re-analysis of the deposited data

How the results depend on the processing

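Settings varied 1 at a time: the pseudocount (0.1), the low-value filter (none, or a mean of 5 TPM), the scaling (median-of-ratios, quantile, or TPM recomputed without mitochondrially encoded genes), the hearts in the fit (the 6 of a comparison, or all but 1), the variance trend (off) and array weights. Under these, 677 of 690 values of single genes kept their direction and side of the adjusted threshold, and the number of members past that threshold was 0 throughout. Much of that agreement was fixed in advance. Other filters, the 6 hearts of a comparison, the trend off, or leaving out a heart of the group not compared leave the fold change itself unchanged. No listed gene passed the adjusted threshold in the main fit. Median-of-ratios scaling shifted the median of all genes by 0.12 in the preservation comparison. Counts of members past the unadjusted threshold were less stable. In the preservation comparison the count went from 0 to 1 without the mitochondrially encoded genes, and ranged from 0 to 1 with 1 heart left out (1 without pig 25, 28 or 34). In the NRP comparison it went from 1 to 2 under median-of-ratios scaling and under quantile normalization. Between the HOPE groups it went from 0 to 1 with no filter, median-of-ratios scaling or array weights, to 2 under quantile normalization or without mitochondrially encoded genes, and ranged from 0 to 2 with 1 heart left out (1 without pig 30, 2 without pig 31). Of the other 40 genes, the count past the adjusted threshold went from 0 to 1 with array weights in the preservation comparison (PHLDA3) and ranged from 0 to 1 with 1 heart left out between the HOPE groups (SESN2 without pig 33). Their count past the unadjusted threshold went with array weights from 3 to 6 and from 2 to 5 in the preservation and NRP comparisons, ranged from 2 to 4 in the latter with 1 heart left out (4 without pig 33), and was 5 under median-of-ratios scaling in the preservation comparison and between the HOPE groups. Values near 0 changed sign. In the preservation comparison BBC3 was 0.0581 under median-of-ratios scaling and 0.0698 under quantile normalization, and ranged from -0.34 to 0.30 with 1 heart left out; BAX ranged from -0.60 to 0.0341. BBC3 ranged from -0.41 to 0.23 in the NRP comparison and from -0.21 to 0.25 between the HOPE groups, where it was -0.25 with array weights, and CASP6 there ranged from -0.79 to 0.0655. The causes were not tested. The planned ratio of BAX to BCL2 was not run, because BCL2 was not analysed here. No paired analysis was possible because the groups share no pig numbers. With 3 hearts per group and no read depth, the 95% intervals of MDM2, BBC3 and BAX were 1.42 log2 units wide or more from end to end.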
